A study of Mus musculus with 14 samples.

Results

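The phase II conjugation enzymes of the mouse kidney are described here, namely the UDP-glucuronosyltransferases (UGT), the glutathione S-transferases (GST), the microsomal glutathione S-transferases (MGST), and the sulfotransferases (SULT). All genes whose symbol begins with Ugt, Gst (alpha, kappa, mu, omega, pi, theta, or zeta), Sult, or Mgst followed by a number were taken, which gave 66 of the 21878 genes listed. Of these, 47 reached 0.1 FPKM in 3 or more mice and were kept, among the 14912 genes that passed this filter and were tested. The 47 were 21 GST, 16 UGT, 8 SULT, and 2 MGST genes. FPKM is the number of sequenced fragments of a gene adjusted for transcript length and for the depth of the library, so levels of different genes can be set side by side. A gene that passed only through the group where it is high was bound to differ, so the count of kept genes is no result in itself.

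Kidney RNA was sequenced from 14 male C57BL/6J mice in 4 groups of 4 WT diabetic, 4 *Cfb*-/- diabetic, 3 WT control, and 3 *Cfb*-/- control mice. *Cfb* encodes complement factor B, a serine protease of the alternative complement pathway, and was deleted in the whole body, so that every cell type lacked it. Diabetic mice received a high-fat diet (60% of calories from fat) for 4 weeks and streptozotocin (STZ), a toxin of insulin-producing beta cells, at 60 mg/kg on 5 days, so that diet and STZ cannot be told apart. Chow in which fat gave 10% of calories, and citrate buffer, were given to control mice. The labels state 34 weeks as the time but not its starting point, call the deletion a knockdown, and give the control mice the treatment text of the diabetic mice, so groups were taken from the sample titles. Nothing in the labels says more about how the mice of a group are related, and p-values measure the spread between these samples only.

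Conjugation makes drugs, bile pigments, steroids, and reactive lipids more soluble by attaching a charged group, after which export pumps move the conjugate into urine or blood. UGT enzymes attach glucuronic acid from UDP-glucuronate, GST and MGST enzymes attach glutathione, and SULT enzymes attach sulfate from the donor PAPS. In the kidney most of these reactions take place in proximal tubule cells, which take up organic anions from blood.

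The UGT1 genes share a single stretch of chromosome 1, and their sequences set how well their reads can be assigned. Each gene has a first exon of its own, spliced to exons 2 to 5 that all of them use, and the gene bodies in RefSeq (GRCm38.p6) end together at position 88220002 for all but *Ugt1a6b*. The first 60 coding bases of the 7 kept genes are shown because exons 2 to 5 cannot tell them apart, with the start codon in capitals (GRCm38, plus strand, 5′ to 3′).
Ugt1a10 (chr1:88055482-88055541): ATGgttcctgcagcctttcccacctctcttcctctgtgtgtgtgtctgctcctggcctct
Ugt1a9 (chr1:88070830-88070889): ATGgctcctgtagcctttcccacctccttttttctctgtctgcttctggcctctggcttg
Ugt1a7c (chr1:88095121-88095180): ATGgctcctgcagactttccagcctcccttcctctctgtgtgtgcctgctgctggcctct
Ugt1a6b (chr1:88106942-88107001): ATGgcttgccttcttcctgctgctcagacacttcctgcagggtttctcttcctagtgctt
Ugt1a6a (chr1:88138474-88138533): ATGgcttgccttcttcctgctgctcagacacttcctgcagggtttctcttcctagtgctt
Ugt1a2 (chr1:88200637-88200696): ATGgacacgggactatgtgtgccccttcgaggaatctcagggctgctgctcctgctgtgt
Ugt1a1 (chr1:88212002-88212061): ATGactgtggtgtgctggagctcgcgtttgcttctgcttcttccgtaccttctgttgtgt
start of exon 2, identical in all 8 UGT1 genes listed (chr1:88215044-88215103): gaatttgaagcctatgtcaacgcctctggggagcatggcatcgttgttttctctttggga

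*Ugt1a6a* and *Ugt1a6b* had 0 mismatches over these 60 bases, whereas *Ugt1a10* and *Ugt1a7c* had 8 and *Ugt1a10* and *Ugt1a2* had 32. Of the 125-base words in their transcripts, the shorter read length that the labels give, 95.6% were shared with another gene of the 66 for *Ugt1a6a* and 50.7% for *Ugt1a10*. With *Ugt1a7c* alone *Ugt1a6a* shared 93.8%, although the coding starts of these genes, shown above, differ. The words were pooled over all protein-coding GENCODE transcripts filed under a gene name, 4214 words for *Ugt1a7c* and 2317 for *Ugt1a6a*. Whether the authors divided reads by the same transcripts is not known. Across the 47 genes, 32 shared no word of that length and 13 shared more than 10% of their words. These 13 were the 7 UGT1 genes, *Gsta1* and *Gsta2*, *Gstp1* and *Gstp2*, and *Ugt2b38* and *Ugt2b5*. Their levels rest in part on how the authors divided shared reads. *Ugt1a9* was listed in the 3 WT control mice at 1.88e-12, 1.47e-07, and 7.11e-09 FPKM, values too small to come from a whole read.

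*Cfb* was examined first to check the labels. It was measured at 131, 62.2, and 126 FPKM in WT control mice and at 78.8, 81.9, 72.7, and 56.7 FPKM in WT diabetic mice. With the gene deleted its level was 2.05 to 2.22 FPKM without and 1.13 to 1.43 FPKM with diabetes, so no mouse went against its label. Summed FPKM was 390374 to 488196 in WT control, 372884 to 394445 in *Cfb*-/- control, and 330246 to 364953 in diabetic mice. The androgen-dependent tubule transcript *Kap* held 10.2% to 13.9% of the sum in control mice, and no gene held more than 4.60% in a diabetic mouse. The 47 genes held 0.695% to 1.06% of the sum. The labelled tissue was met by proximal tubule markers, whose 14 genes summed to 2978 FPKM or more in every mouse.

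Several marker lists moved with diabetes, and their part in the results was not tested. Beside the counts below, 36.2% of all tested genes were higher and 9.97% lower in WT mice at an adjusted p under 0.05 from limma. In *Cfb*-/- mice these shares were 27.4% and 6.4%. The summed level of the 14 proximal tubule markers was 9274 to 10521 FPKM in WT control mice and 3792 to 4852 FPKM in WT diabetic mice, with 10 of 14 genes lower at an adjusted p under 0.05. In *Cfb*-/- mice it was 7696 to 8271 FPKM in control and 2978 to 4775 FPKM in diabetic mice, with 12 of 14 lower. Diabetic *Cfb*-/- mice 1 and 2 were the lowest of all, at 2978 and 2983 FPKM. The 8 markers of injured tubule, all higher in diabetic mice of both genotypes, summed to 52.1 to 72.7 FPKM in control and 124 to 300.1 FPKM in diabetic mice. Macrophage markers, 8 of 8 higher in WT and 7 of 8 in *Cfb*-/- mice, summed to 57.1 to 89.2 FPKM and 227 to 415 FPKM. Of 7 hepatocyte markers tested, 3 were higher in each genotype, while *Cps1*, a defining liver gene, was listed at 0 in all mice of 3 groups, and the list summed to 57.9 to 110 FPKM in control and 129 to 340 FPKM in diabetic mice. The 8 urothelium markers, all higher in WT and none in *Cfb*-/- mice, summed to 0.363 to 0.867 FPKM in WT control, 0.818 to 51.4 FPKM in WT diabetic, 0.708 to 10.5 FPKM in *Cfb*-/- control, and 1.43 to 3.68 FPKM in *Cfb*-/- diabetic mice. Of the adipocyte markers, 5 of 5 tested were higher in WT and 1 in *Cfb*-/- mice, and the list of 6 summed to 16.1 to 33.4 FPKM in control, 45.9 to 72.0 FPKM in WT diabetic and 32.3 to 44.0 FPKM in *Cfb*-/- diabetic mice, with *Plin1*, *Lep*, and *Retn* listed at 0 throughout WT control and *Cfb*-/- diabetic mice. The smaller marker lists of thick limb and collecting duct had 3 and 3 of 6 genes higher in WT mice and 2 and 0 of 6 higher in *Cfb*-/- mice, and 1 thick limb gene, *Cldn10*, was lower in both genotypes. With so few genes, the thick limb (50% higher in WT and 33.3% in *Cfb*-/- mice) and collecting duct lists (50% and 0%) are not read as moved. The same holds for the hepatocyte list (42.9% in each genotype). In whole kidney, fewer cells of a type and less RNA per cell cannot be told apart.

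Diabetes was compared within each genotype to ask which conjugation enzymes differ between diabetic and control kidneys. The UGT1 genes *Ugt1a1*, *Ugt1a2*, *Ugt1a6a*, and *Ugt1a10*, 3 of 4 alpha-class GST genes, *Gsto1*, *Mgst1*, and *Sult4a1* were higher in diabetic mice of both genotypes. *Ugt2b38*, *Ugt2a3*, both pi-class GST genes, *Gstz1*, *Gstk1*, and *Sult2a3* were lower in both. *Ugt1a9* and *Ugt2b35* were also called higher in both and are in the counts below. They passed the filter through the diabetic mice and were bound to differ, so their calls are not read as a result. In WT mice 30 of the 47 genes were called by limma at a p under 0.05 after Benjamini-Hochberg adjustment, 19 higher and 11 lower, where 46.1% of all tested genes were called (36.2% higher and 9.97% lower). In *Cfb*-/- mice 24 of 47 were called, 15 higher and 9 lower, where 33.8% of all tested genes were called (27.4% higher and 6.4% lower). These are 63.8% and 51.1% of the 47 genes. The criteria of the study ask for a fold change beyond 2 in either direction (a ratio over 2 or under 0.5) at an unadjusted p under 0.05. Applied here to the limma fit, they were met by 13 genes higher and 5 lower in WT mice. In *Cfb*-/- mice 12 were higher and 5 lower. The background at those criteria was 15.6% higher and 1.82% lower in WT mice and 13.3% and 1.66% in *Cfb*-/- mice (17.5% and 14.9% in all). At an unadjusted p alone there were 32 genes in WT and 30 in *Cfb*-/- mice, beside 54.4% and 43.5%. Diabetic and control mice did not overlap for 18 genes higher and 11 lower in WT mice, beside 35.5% and 9.84% of all tested genes, and for 18 higher and 10 lower in *Cfb*-/- mice, beside 33.6% and 8.64%.

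The WT and *Cfb*-/- comparisons share no mouse. The same direction was called in both for 21 genes, 14 higher and 7 lower, which is 44.7% of the 47 against 27.4% of all tested genes (22.7% higher and 4.76% lower). They were 70% of the genes called in WT mice and 87.5% of those called in *Cfb*-/- mice. The sign of the difference was the same for 41 of 47 genes. The 47 genes had a median log2 difference of 0.30 (WT) and 0.29 (*Cfb*-/-), beside 0.29 and 0.22 for all tested genes, so that the typical gene of the whole table was itself slightly higher in diabetic mice. When the libraries were scaled by the median ratio, which brought the median of all genes to 0.03 and -0.01, 14 genes were higher and 14 lower in WT mice (29.8% and 29.8% of the 47), beside 22.8% and 22.3% of all tested genes (45.1% in all). With this scaling 13 were higher and 12 lower in *Cfb*-/- mice (27.7% and 25.5%), beside 18.6% and 13.9% (32.5% in all). The share of lower genes thus lay closer to that of all genes than without the scaling, above all in WT mice. Differences are given here as mean log2(FPKM + 0.1) of diabetic minus control mice, a scale on which the change of genes near 0.1 FPKM is understated.

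**Figure D1:**
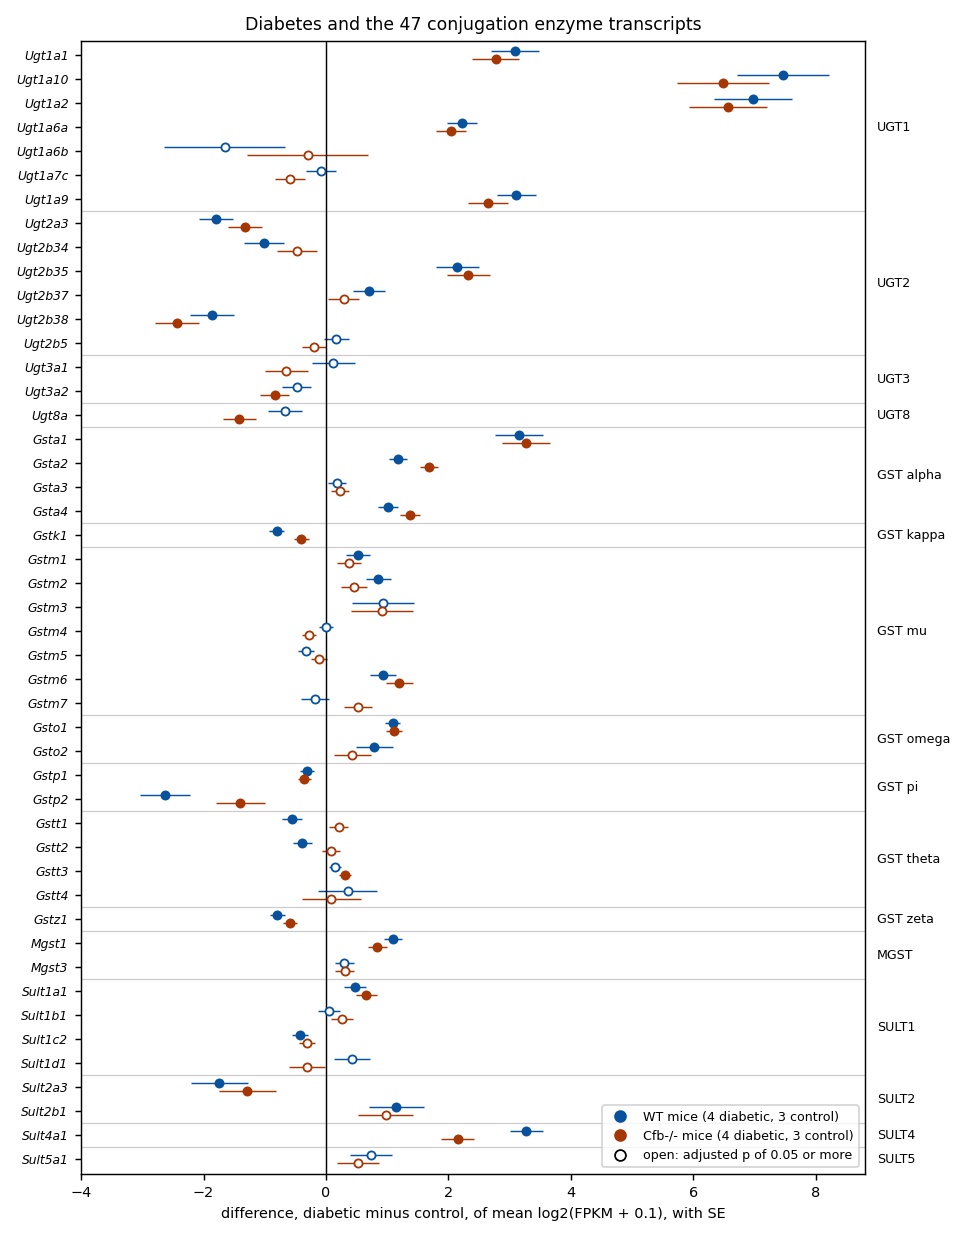
Difference between diabetic and control mice in mean log2(FPKM + 0.1) for the 47 genes, grouped by family, with the standard error, for WT (blue) and *Cfb*-/- mice (brown), each 4 diabetic against 3 control. Filled points passed an adjusted p of 0.05 in limma. *Ugt1a10* and *Ugt1a2* lie far to the right of the other genes in both genotypes, and *Gstp2*, *Ugt2b38*, and *Ugt2a3* lie to the left.

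The glucuronosyltransferases of the UGT1 family held the greatest differences. *Ugt1a10* was measured at 3.26, 1.17, and 0.0421 FPKM in WT control mice and at 78.6, 177, 199, and 176 FPKM in WT diabetic mice. Levels in *Cfb*-/- mice were 1.48, 0.923, and 1.35 FPKM in control and 149, 72.9, 87.4, and 208 FPKM in diabetic mice. Every diabetic mouse was above every control mouse, and WT control mouse 3 was far below the other controls. The log2 difference was 7.46 (SE 0.75, adjusted p 9.27e-06 from limma) in WT mice and 6.48 (SE 0.75, adjusted p 2.69e-05) in *Cfb*-/- mice. Over the alternative settings it ranged from 6.14 to 8.45 in WT and from 5.74 to 6.71 in *Cfb*-/- mice.

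*Ugt1a2* was measured at 0.199, 0.188, and 0.173 FPKM in WT control mice and at 25.4, 99.997, 15.1, and 43.4 FPKM in WT diabetic mice. Among *Cfb*-/- mice it was at 0.203, 0.205, and 0.323 FPKM in control and at 70.2, 12.0, 16.8, and 74.4 FPKM in diabetic mice. Control mice of both genotypes lay between 0.173 and 0.323 FPKM, with *Cfb*-/- control mouse 3 the highest, whereas diabetic mice of a genotype differed several-fold. The log2 difference was 6.98 (SE 0.64) in WT mice and 6.57 (SE 0.64) in *Cfb*-/- mice, with adjusted p of 4.88e-06 and 7.76e-06 from limma. *Ugt1a2* had the smallest p of the UGT genes in both comparisons.

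*Ugt1a1* encodes the enzyme that conjugates bilirubin. It was measured at 0.287, 0.150, and 0.411 FPKM in WT control and at 2.42, 5.81, 2.33, and 2.53 FPKM in WT diabetic mice. With *Cfb* deleted it was at 0.292, 0.426, and 0.221 FPKM in control and at 4.00, 1.93, 1.55, and 4.10 FPKM in diabetic mice. Every diabetic mouse was above every control mouse. It rose by a log2 difference of 3.09 (SE 0.39) in WT and 2.77 (SE 0.39) in *Cfb*-/- mice, with adjusted p of 4.50e-05 and 1.12e-04 from limma. *Ugt1a6a*, whose product conjugates small phenols, was at 2.55, 1.10, and 1.75 FPKM in WT control mice and at 8.84, 7.53, 7.16, and 10.2 FPKM in WT diabetic mice. Mice lacking *Cfb* were at 2.11, 1.90, and 2.65 FPKM in control and at 13.1, 8.29, 7.55, and 9.33 FPKM in diabetic mice. Here too the diabetic mice were all above the controls, and the log2 difference was 2.23 (SE 0.24) in WT and 2.04 (SE 0.24) in *Cfb*-/- mice. Of the words of *Ugt1a6a* in the GENCODE transcripts, 95.6% were shared with other genes, as given above. This difference may therefore rest in part on how shared reads were divided. *Ugt1a9* was listed below 0.001 FPKM in WT control mice, at 0.124, 0.0419, and 1.14e-09 FPKM in *Cfb*-/- control mice, and at 0.431 to 1.11 FPKM in the 8 diabetic mice, above every control. Only 1 of the 6 control mice reached 0.1 FPKM, so this gene too passed the filter through the diabetic mice, and its calls are a description.

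*Ugt1a7c*, the most abundant UGT1 gene, was not called in either genotype. It was measured at 268, 155, and 199 FPKM in WT control and at 202, 226, 203, and 145 FPKM in WT diabetic mice, with full overlap. Levels in *Cfb*-/- mice were 263, 225, and 229 FPKM in control and 112, 121, 236, and 196 FPKM in diabetic mice, where mice 1 and 2 were the low ones. *Ugt1a6b* varied from 6.69 to 102 FPKM among WT control mice alone and from 2.96 to 19.4 FPKM among *Cfb*-/- diabetic mice, and it was not called. Its mean was 64.0 FPKM in WT control and 17.9 FPKM in WT diabetic mice, the opposite direction to *Ugt1a6a*. In *Cfb*-/- mice its mean was 10.4 FPKM in control and 9.30 FPKM in diabetic mice. Its coding start equals that of *Ugt1a6a*, shown above, and a shift of shared reads between them was not tested. *Ugt1a10* made up 0.541% ± 0.577 (SD, n = 3) of the summed UGT1 level in WT control mice and 36.2% ± 9.10 (SD, n = 4) in WT diabetic mice. In *Cfb*-/- mice its share was 0.493% ± 0.105 (SD, n = 3) and 34.7% ± 8.33 (SD, n = 4). *Ugt1a7c* made up 75.0% ± 18.4 and 46.4% ± 11.7 in WT mice and 94.3% ± 2.88 and 47.2% ± 15.5 in *Cfb*-/- mice. The total of the family was 275 ± 13.1 FPKM (SD, n = 3) in WT control and 428 ± 82.2 FPKM (SD, n = 4) with diabetes. The total was 254 ± 19.998 FPKM (SD, n = 3) in *Cfb*-/- control and 362 ± 107 FPKM (SD, n = 4) in *Cfb*-/- diabetic mice, where diabetic mouse 2, at 236 FPKM, was below all controls.

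**Figure D2:**
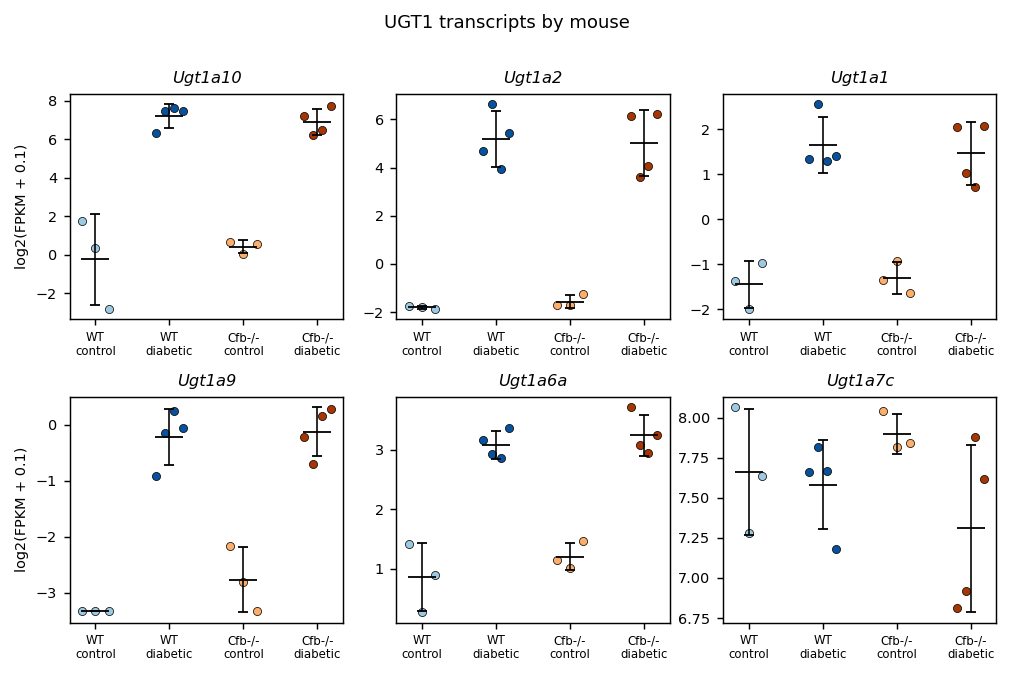
Level of 6 UGT1 genes as log2(FPKM + 0.1) in each mouse (points), with the mean and SD of the group (bar and whiskers), for 3 WT control, 4 WT diabetic, 3 *Cfb*-/- control, and 4 *Cfb*-/- diabetic mice. The axis of each panel has its own range. In the panels of *Ugt1a10*, *Ugt1a2*, *Ugt1a1*, *Ugt1a9*, and *Ugt1a6a* all diabetic mice lie above all control mice, and in that of *Ugt1a7c* the groups overlap.

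Promoters of the enzymes were searched for the letters of 2 response elements, on both strands, in RefSeq windows (GRCm38.p6) of 250 bases before and 50 after the start. The letters GCGTG, a core of the sites of the aryl hydrocarbon receptor, were in 12 of 53 promoters of the 42 matched genes (22.6%), beside 32.4% of all 32851 promoters. TGACNNNGC, the core of the antioxidant response element read by NRF2, was in 4 of 53 (7.55%, beside 12.4%), those of *Gsta3*, *Gstm5*, *Gstm7*, and *Mgst1*. A match describes the letters only.

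The UGT2 family, encoded on chromosome 5, was lower in total. Its genes conjugate steroids, bile acids, and many drugs. *Ugt2b38* was measured at 402, 394, and 378 FPKM in WT control mice and at 153, 114, 111, and 68.2 FPKM in WT diabetic mice. Among *Cfb*-/- mice it was at 427, 439, and 350 FPKM in control and at 33.5, 68.9, 140, and 96.2 FPKM in diabetic mice. No diabetic mouse came near the lowest control mouse. It fell by a log2 difference of 1.87 (SE 0.36) in WT and 2.43 (SE 0.36) in *Cfb*-/- mice, with adjusted p of 9.99e-04 and 1.62e-04 from limma. From the second most abundant of the 47 genes in control mice of both genotypes, it came to rank 11 in WT diabetic and 12 in *Cfb*-/- diabetic mice.

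*Ugt2a3* was measured at 0.765, 0.621, and 0.926 FPKM in WT control and at 0.251, 0.118, 0.179, and 0.0774 FPKM in WT diabetic mice. With *Cfb* deleted it was at 0.814, 0.768, and 0.546 FPKM in control and at 0.150, 0.221, 0.387, and 0.172 FPKM in diabetic mice. All diabetic mice were below all control mice, and it was lower in both genotypes, with log2 differences of -1.80 (SE 0.28) and -1.32 (SE 0.28). *Ugt2b34* was lower in WT mice only at the threshold, with a log2 difference of -1.01 (SE 0.32, adjusted p 0.0208 from limma) beside -0.47 (SE 0.32, adjusted p 0.289) in *Cfb*-/- mice, and the difference between the genotypes did not pass the test. In WT mice it lost its call without WT control mouse 1 or without WT diabetic mouse 3. *Ugt2b35* went the other way. It was listed at 0 in all 6 control mice, and was measured at 0.457, 0.367, 0.103, and 0.615 FPKM in WT diabetic and at 0.491, 0.329, 0.587, and 0.260 FPKM in *Cfb*-/- diabetic mice. It passed the filter through the diabetic mice alone, so it was bound to differ, and its calls in both genotypes, which the counts above include, are not read as a result.

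*Ugt2b37*, the second UGT2 gene by level, was at 84.4, 60.4, and 43.3 FPKM in WT control and at 115, 98.1, 96.9, and 85.4 FPKM in WT diabetic mice. Its log2 difference was 0.70 (SE 0.26, adjusted p 0.0368 from limma) in WT mice, a call lost in 8 of 22 alternative settings, among them median-ratio scaling and leaving out WT diabetic mouse 1, 2, or 3 or WT control mouse 2 or 3. Mice lacking *Cfb* were at 67.3, 45.5, and 49.2 FPKM in control and at 48.0, 47.9, 88.0, and 87.8 FPKM in diabetic mice, where mice 1 and 2 lay within the control range. The share of *Ugt2b38* in the family went from 84.7% ± 3.71 (SD, n = 3) to 50.5% ± 5.66 (SD, n = 4) in WT mice and from 86.6% ± 2.21 to 50.8% ± 9.22 in *Cfb*-/- mice. That of *Ugt2b37* went from 13.4% to 46.2% and from 11.6% to 44.1%. The family total was 463 ± 34.1 FPKM (SD, n = 3) in WT control mice and 217 ± 47.1 FPKM (SD, n = 4) with diabetes. In *Cfb*-/- mice it was 468 ± 53.1 FPKM (SD, n = 3) in control and 160 ± 66.4 FPKM (SD, n = 4) in diabetic mice. Mean totals were 2.13-fold and 2.93-fold lower in diabetic mice, without overlap. The proximal tubule marker sum was lower in the same mice, as given above.

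*Ugt3a2*, an enzyme that uses sugars other than glucuronic acid, was the most abundant of all 47 genes in each group. It was measured at 802, 640, and 547 FPKM in WT control, 421, 564, 562, and 364 FPKM in WT diabetic, 781, 600, and 859 FPKM in *Cfb*-/- control, and 334, 303, 513, and 567 FPKM in *Cfb*-/- diabetic mice. The groups overlapped in WT mice, with a log2 difference of -0.48 (SE 0.24, adjusted p 0.108 from limma), and did not overlap in *Cfb*-/- mice, where it fell by 0.83 (SE 0.24, adjusted p 0.0140). The call in *Cfb*-/- mice was lost without *Cfb*-/- control mouse 3. *Ugt8a*, which makes galactosylceramide, was at 46.1, 22.3, and 26.9 FPKM in WT control and at 21.2, 17.6, 18.5, and 18.9 FPKM in WT diabetic mice, a log2 difference of -0.67 (SE 0.27, adjusted p 0.0581 from limma) that was called in 7 of 22 alternative settings, without WT control mouse 2 among them. Levels in *Cfb*-/- mice were 36.6, 33.8, and 33.9 FPKM in control and 9.08, 9.15, 16.3, and 20.9 FPKM in diabetic mice, and it fell by a log2 difference of 1.41 (SE 0.27, adjusted p 0.0012). *Cfb*-/- diabetic mice 1 and 2, the mice lowest in proximal tubule markers, were also the lowest for *Ugt3a2* and *Ugt8a*. *Ugt3a1* and *Ugt2b5* were not called in either genotype. Summed over all 16 UGT genes, the level was 1496 ± 204 FPKM (SD, n = 3) in WT control and 1207 ± 184 FPKM (SD, n = 4) with diabetes in WT mice, with overlap, and 1597 ± 143 FPKM (SD, n = 3) and 1025 ± 303 FPKM (SD, n = 4) in *Cfb*-/- mice, without overlap.

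The alpha-class GST genes, whose products conjugate lipid peroxidation products such as 4-hydroxynonenal, were higher as a class. *Gsta2* was measured at 122, 126, and 111 FPKM in WT control and at 244, 289, 252, and 302 FPKM in WT diabetic mice. Among *Cfb*-/- mice it was at 84.5, 80.1, and 59.4 FPKM in control and at 237, 185, 269, and 266 FPKM in diabetic mice. Its log2 difference was 1.18 (SE 0.15) in WT and 1.68 (SE 0.15) in *Cfb*-/- mice, with adjusted p of 4.57e-05 and 4.56e-06 from limma, and in *Cfb*-/- mice it had the smallest p of the 47 genes. *Gsta1* was at 0.548, 0.327, and 0.608 FPKM in WT control and at 3.85, 8.47, 3.92, and 5.03 FPKM in WT diabetic mice. With *Cfb* deleted it was at 0.393, 0.988, and 0.321 FPKM in control and at 8.71, 4.35, 3.43, and 8.37 FPKM in diabetic mice. The log2 difference was 3.15 (SE 0.39) in WT and 3.26 (SE 0.39) in *Cfb*-/- mice, and no diabetic mouse overlapped the controls for either gene. *Gsta4*, which acts on 4-hydroxynonenal, was at 23.1, 27.8, and 25.8 FPKM in WT control and at 43.5, 56.7, 48.8, and 59.1 FPKM in WT diabetic mice. The *Cfb*-/- values were 19.2, 18.2, and 20.6 FPKM in control and 65.2, 49.1, 36.6, and 55.2 FPKM in diabetic mice, so the groups were again apart. It rose by a log2 difference of 1.02 (SE 0.16) in WT and 1.38 (SE 0.16) in *Cfb*-/- mice. *Gsta3* was not called, with log2 differences of 0.18 and 0.23. The class total was 1.90 and 2.38 times the control mean in WT and *Cfb*-/- diabetic mice, without overlap.

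*Gsto1*, an omega-class enzyme that reduces dehydroascorbate and methylated arsenic, was at 22.8, 27.6, and 27.2 FPKM in WT control and at 52.4, 56.6, 51.3, and 60.0 FPKM in WT diabetic mice. Mice lacking *Cfb* were at 22.9, 27.0, and 27.4 FPKM in control and at 68.7, 56.9, 46.4, and 52.4 FPKM in diabetic mice. The diabetic mice were all above the controls. The log2 difference was 1.09 (SE 0.13) and 1.11 (SE 0.13), at a limma adjusted p of 2.45e-05 in both. *Mgst1*, a membrane-bound glutathione transferase and peroxidase, was at 59.5, 63.3, and 61.0 FPKM in WT control and at 108, 137, 124, and 159 FPKM in WT diabetic mice. Levels in *Cfb*-/- mice were 62.0, 75.8, and 55.7 FPKM in control and 128, 91.3, 114, and 129 FPKM in diabetic mice, and the log2 difference was 1.09 (SE 0.15) and 0.84 (SE 0.15). *Mgst3*, the more abundant of the pair, had log2 differences of 0.30 in both genotypes (SE 0.16) and was not called.

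Of the 7 mu-class genes, 3 were higher in WT mice (*Gstm1*, *Gstm2*, *Gstm6*) and only *Gstm6* passed the test in *Cfb*-/- mice. *Gstm1*, the most abundant GST, was at 246, 332, and 164 FPKM in WT control and at 273, 377, 419, and 311 FPKM in WT diabetic mice. The groups overlapped, and its call (log2 difference 0.52, SE 0.20, adjusted p 0.0447 from limma) was lost in 15 of 22 alternative settings, among them leaving out WT control mouse 1 or 3 or WT diabetic mouse 2, 3, or 4. *Gstm6* was at 0.888, 1.02, and 1.002 FPKM in WT control and at 2.45, 2.11, 1.17, and 2.26 FPKM in WT diabetic mice. Among *Cfb*-/- mice it was at 0.703 to 0.983 FPKM in control and at 1.80 to 2.22 FPKM in diabetic mice, with log2 differences of 0.93 (SE 0.21) in WT and 1.20 (SE 0.21) in *Cfb*-/- mice. The call in WT mice was lost under quantile normalization, where the difference was 0.29. *Gsto2* was called higher in WT mice (log2 difference 0.79, SE 0.30, adjusted p 0.0463 from limma), a call lost in 17 of 21 alternative settings, among them leaving out WT diabetic mouse 2, 3, or 4 or any 1 of the WT control mice.

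The pi, zeta, and kappa classes were lower. *Gstp1*, whose product also restrains stress kinases, was at 143, 183, and 152 FPKM in WT control and at 115, 132, 130, and 134 FPKM in WT diabetic mice. With *Cfb* deleted it was at 145, 146, and 126 FPKM in control and at 99.6, 100.2, 118, and 118 FPKM in diabetic mice. It fell by a log2 difference of 0.31 (SE 0.11, adjusted p 0.0332 from limma) in WT and 0.35 (SE 0.11, adjusted p 0.0242) in *Cfb*-/- mice. Leaving out WT control mouse 2 or 3, or WT diabetic mouse 1 or 3, ended the call in WT mice, and leaving out *Cfb*-/- control mouse 1 or 2, or *Cfb*-/- diabetic mouse 1 or 2, ended it in *Cfb*-/- mice. *Gstp2*, which shares 31.9% of its words with other genes of the 66, was at 0.809, 2.33, and 1.28 FPKM in WT control and at 0.0897, 0.359, 0.0907, and 0.0821 FPKM in WT diabetic mice. Mice lacking *Cfb* were at 1.56, 1.14, and 0.606 FPKM in control and at 0.231, 0.410, 0.475, and 0.253 FPKM in diabetic mice. All diabetic mice were below all control mice. The log2 difference was -2.63 (SE 0.40, adjusted p 1.87e-04 from limma) and -1.40 (SE 0.40, adjusted p 0.0152), and the call in *Cfb*-/- mice was lost without *Cfb*-/- control mouse 1 or 2.

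*Gstz1*, which isomerizes maleylacetoacetate in tyrosine breakdown, was at 169, 198, and 182 FPKM in WT control and at 100.1, 114, 114, and 95.1 FPKM in WT diabetic mice. Levels in *Cfb*-/- mice were 152, 151, and 144 FPKM in control and 88.3, 86.5, 106, and 118 FPKM in diabetic mice. The groups did not overlap, and it fell by a log2 difference of 0.79 (SE 0.12) in WT and 0.59 (SE 0.12) in *Cfb*-/- mice, with adjusted p of 1.34e-04 and 0.00136 from limma. *Gstk1*, a mitochondrial and peroxisomal enzyme, was at 81.7, 118, and 88.5 FPKM in WT control and at 47.9, 61.1, 56.1, and 52.7 FPKM in WT diabetic mice, and fell by 0.81 (SE 0.13) in WT and 0.40 (SE 0.13) in *Cfb*-/- mice. In *Cfb*-/- mice the call was lost without control mouse 2 or without diabetic mouse 1 or 2. The mean totals of pi, zeta, and kappa classes were 1.26-fold, 1.73-fold, and 1.76-fold lower in WT and 1.28-fold, 1.496-fold, and 1.33-fold lower in *Cfb*-/- diabetic mice.

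The theta class differed between its genes. *Gstt1*, which acts on small halogenated compounds, was at 65.8, 96.0, and 85.1 FPKM in WT control and at 52.7, 55.6, 50.7, and 63.2 FPKM in WT diabetic mice, and fell by a log2 difference of 0.55 (SE 0.16, adjusted p 0.0111 from limma), a call lost without WT control mouse 2. *Gstt2* had a log2 difference of -0.39 in WT mice (SE 0.15, adjusted p 0.0471), a call lost in 13 of 22 alternative settings, among them leaving out WT diabetic mouse 1, 2, or 3 or WT control mouse 2 or 3. Neither was called in *Cfb*-/- mice, at 0.21 and 0.08. *Gstt3* was higher in *Cfb*-/- mice (0.30, SE 0.10, adjusted p 0.0258 from limma), a call lost in 5 of 22 alternative settings, among them median-ratio scaling and leaving out *Cfb*-/- diabetic mouse 1 or *Cfb*-/- control mouse 2 or 3, and *Gstt4*, seen at 0.1 FPKM or more in 4 mice, was not called.

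**Figure D3:**
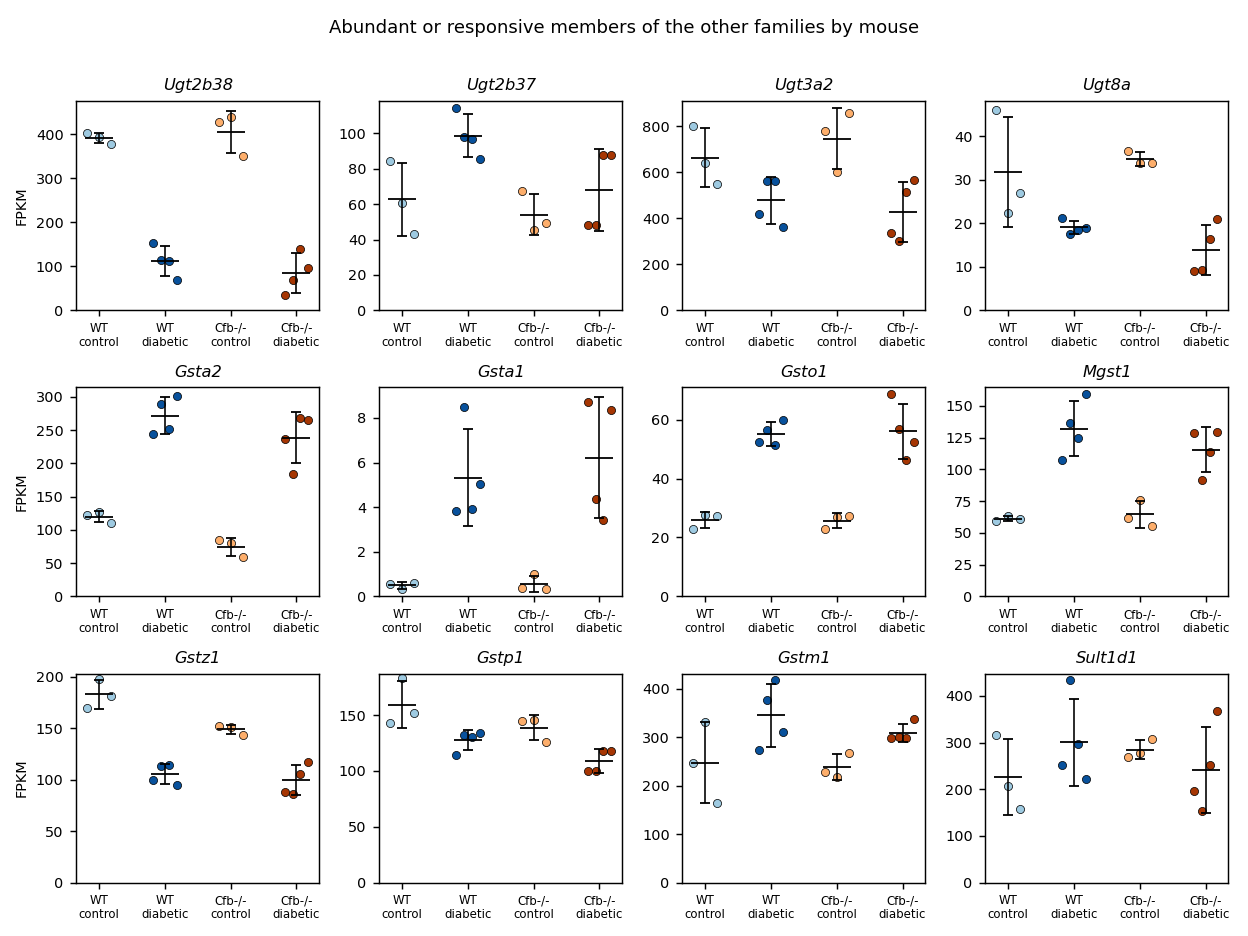
FPKM of 12 abundant or responsive genes of the other families in each mouse (points), with group mean and SD (bar and whiskers), each axis starting at 0. *Ugt2b38* and *Gstz1* are lower and *Gsta2*, *Gsta1*, *Gsto1*, and *Mgst1* higher in every diabetic mouse than in every control mouse, while *Sult1d1* overlaps between all 4 groups.

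Among the sulfotransferases, *Sult4a1*, a gene best known from neurons, differed most. It was listed at 0 in the 3 WT control mice and measured at 0.996, 0.758, 0.743, and 0.991 FPKM in WT diabetic mice (limma adjusted p 2.51e-06), the smallest p of the 47 genes in that comparison. Among *Cfb*-/- mice it was at 0.118, 0.104, and 0.109 FPKM in control and at 1.37, 1.07, 0.484, and 0.657 FPKM in diabetic mice, with a mean 8.11 times that of the controls and a log2 difference of 2.15 (SE 0.27, adjusted p 4.50e-05). All control mice lay at 0 or near the floor, so the size of the *Sult4a1* difference depends on the settings. Over the alternatives it ranged from 0.90 to 6.45 in WT and from 0.75 to 2.80 in *Cfb*-/- mice. *Sult2a3*, of the family that sulfates steroids and bile acids, was at 0.569, 0.624, and 0.260 FPKM in WT control and at 0.0596, 0.0616, 0, and 0.203 FPKM in WT diabetic mice, and fell by a log2 difference of 1.74 (SE 0.47, adjusted p 0.00859 from limma). With *Cfb* deleted it was at 0.350, 0.206, and 0.452 FPKM in control and at 0.195, 0.210, 0, and 0 FPKM in diabetic mice, and the call (-1.28, adjusted p 0.0482) was lost in 14 of 21 alternative settings, among them leaving out *Cfb*-/- diabetic mouse 3 or 4 or any 1 of the *Cfb*-/- control mice.

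*Sult1d1*, which sulfates catecholamines and other amines, was the most abundant SULT gene and was not called. It was at 157 to 316 FPKM in WT control, 221 to 433 FPKM in WT diabetic, 270 to 307 FPKM in *Cfb*-/- control, and 153 to 367 FPKM in *Cfb*-/- diabetic mice. *Sult1c2* was at 44.0, 50.5, and 52.0 FPKM in WT control and at 37.2, 39.0, 37.9, and 31.2 FPKM in WT diabetic mice, and fell by a log2 difference of 0.43 (SE 0.13, adjusted p 0.0138 from limma), a call lost without WT control mouse 3. *Sult1a1*, the phenol sulfotransferase, was higher by 0.47 in WT mice (SE 0.18, adjusted p 0.0399 from limma) and by 0.66 in *Cfb*-/- mice (SE 0.18, adjusted p 0.00987). In WT mice this difference was -0.05 under quantile normalization, and the call was also lost without WT diabetic mouse 2, 3, or 4 or without any 1 of the WT control mice. Its call in *Cfb*-/- mice was lost under median-ratio scaling and under quantile normalization, where the difference was 0.17. *Sult2b1* was higher in WT mice (1.15, SE 0.44, adjusted p 0.0462), a call lost in 15 of 21 alternative settings, among them leaving out WT diabetic mouse 2 or 3 or WT control mouse 1 or 3. *Sult1b1* and *Sult5a1* were not called in either genotype.

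The families differed in opposite directions, as given above, and the sum over all of them overlapped between diabetic and control mice. All 47 genes summed to 3323 ± 307 FPKM (SD, n = 3) in WT control and 3318 ± 387 FPKM (SD, n = 4) with diabetes. In *Cfb*-/- mice the sum was 3195 ± 124 FPKM (SD, n = 3) in control and 2896 ± 487 FPKM (SD, n = 4) in diabetic mice, within the spread of the diabetic mice. The 21 GST genes summed to 1328 ± 212 and 1442 ± 131 FPKM in WT mice and to 1075 ± 22.7 and 1315 ± 86.6 FPKM in *Cfb*-/- mice. Under median-ratio scaling the diabetic to control ratio of the GST sum in WT mice was 0.884 in place of 1.09, so it has no direction that holds for both scalings. Over all 47 genes that ratio was 0.819 for WT and 0.771 for *Cfb*-/- mice.

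**Figure D4:**
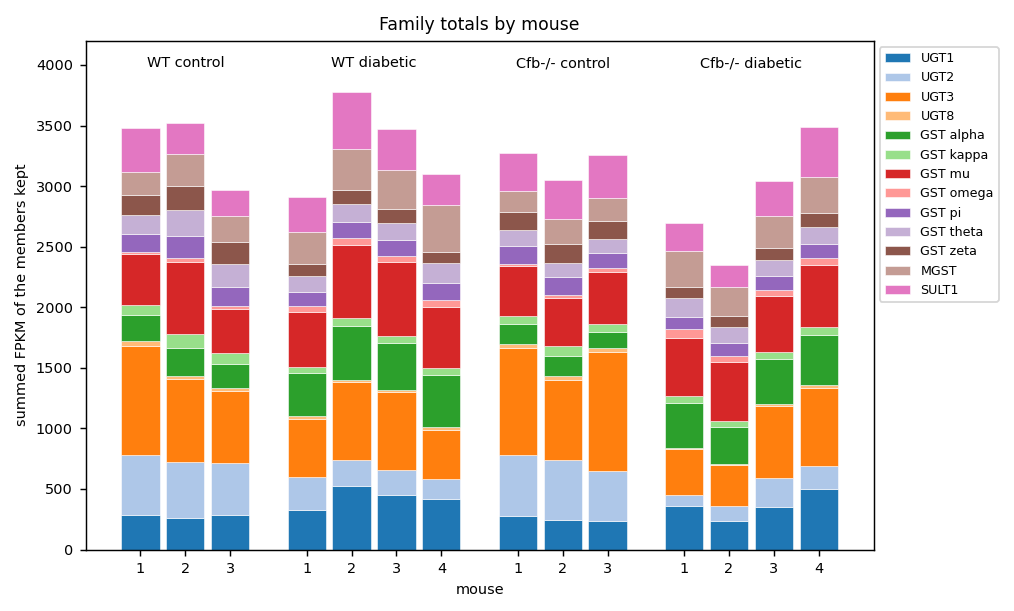
Summed FPKM of the genes of each family, stacked, for each of the 14 mice, with SULT2, SULT4, and SULT5 left out since each sums to under 2 FPKM per mouse. The UGT2 segment is narrower and the GST alpha segment wider in diabetic mice of both genotypes, while the height of the bars overlaps between groups.

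The deletion of *Cfb* was compared among diabetic mice, the comparison at the centre of the study's design. None of the 47 genes was called by limma, where 0.00671% of all tested genes were called, *Cfb* alone. At an unadjusted p under 0.05 there were 6 (12.8%), beside 3% of all tested genes, namely *Gstm4*, *Gstp1*, *Gstp2*, *Gstt2*, *Ugt2b37*, and *Ugt8a*, each with an adjusted p of 1. None met the criteria of the study when these were applied to the limma fit (0.476% of all tested genes did, 0.0738% higher and 0.402% lower). The study applied them to a count-based test, and its own list of genes was not compared here. The groups did not separate without overlap for any of the 47, beside 1.86% of all tested genes higher and 0.885% lower. *Ugt2b37* was at 85.4 to 115 FPKM in WT diabetic and at 47.9 to 88.0 FPKM in *Cfb*-/- diabetic mice, a log2 difference of -0.60 (SE 0.24). *Gstp2* was at 0.0821 to 0.359 FPKM and 0.231 to 0.475 FPKM, a log2 difference of 0.88 (SE 0.37). Without *Cfb*-/- diabetic mouse 2 the number at an unadjusted p under 0.05 was 0, without WT diabetic mouse 3 or 4 it was 2, without *Cfb*-/- diabetic mouse 1 or WT diabetic mouse 1 it was 3, and without WT diabetic mouse 2 it was 4. *Ugt1a10* and *Ugt1a2*, the genes that differed most with diabetes, had the overlapping ranges of 78.6 to 199 against 72.9 to 208 FPKM and of 15.1 to 99.997 against 12.0 to 74.4 FPKM.

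Among control mice the deletion was compared to see whether genotypes differ without diabetes. None of the 47 genes was called by limma, where 0.00671% of all tested genes were called, again *Cfb* alone. At an unadjusted p under 0.05 there were 9 (19.1%), beside 17.5% of all tested genes, which is near the background. Only *Sult4a1* met the criteria of the study, beside 1.17% (0.946% higher and 0.221% lower). The 9 were *Gsta2*, *Gsta4*, *Gstk1*, *Gstm5*, *Gstt1*, *Gstt2*, *Gstz1*, and *Sult1a1*, each lower in *Cfb*-/- mice, and *Sult4a1*, which was higher. The smallest p was that of *Gstt2*, at 58.8, 88.1, and 72.2 FPKM in WT control and at 44.4, 36.9, and 46.3 FPKM in *Cfb*-/- control mice, with a log2 difference of -0.77 (SE 0.16, limma adjusted p 0.190). *Gsta2*, given above, had a log2 difference of -0.69 (SE 0.16, adjusted p 0.223), and *Gstt1* was at 65.8 to 96.0 FPKM in WT and 45.4 to 55.9 FPKM in *Cfb*-/- control mice (adjusted p 0.235). *Sult4a1* was listed at 0 in each WT control mouse and at 0.104 to 0.118 FPKM in each *Cfb*-/- control mouse (adjusted p 0.236).

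Groups did not overlap for 9 genes lower in *Cfb*-/- control mice and 3 higher, where 7.12% and 6.67% of all tested genes did not overlap in that direction. The smallest exact permutation p for 3 mice against 3 is 0.1. This comparison changed when WT control mouse 1 was left out. Without it 6 of the 47 genes (12.8%) were called, all lower in *Cfb*-/- mice (*Gsta2*, *Gstk1*, *Gstm5*, *Gstt1*, *Gstt2*, *Ugt1a6b*). Of all 14912 tested genes 1711 were then called, 945 of them higher. The share called in either direction was thus near that of all genes. With a pseudocount of 0.01 *Sult4a1* alone was called.

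**Figure D5:**
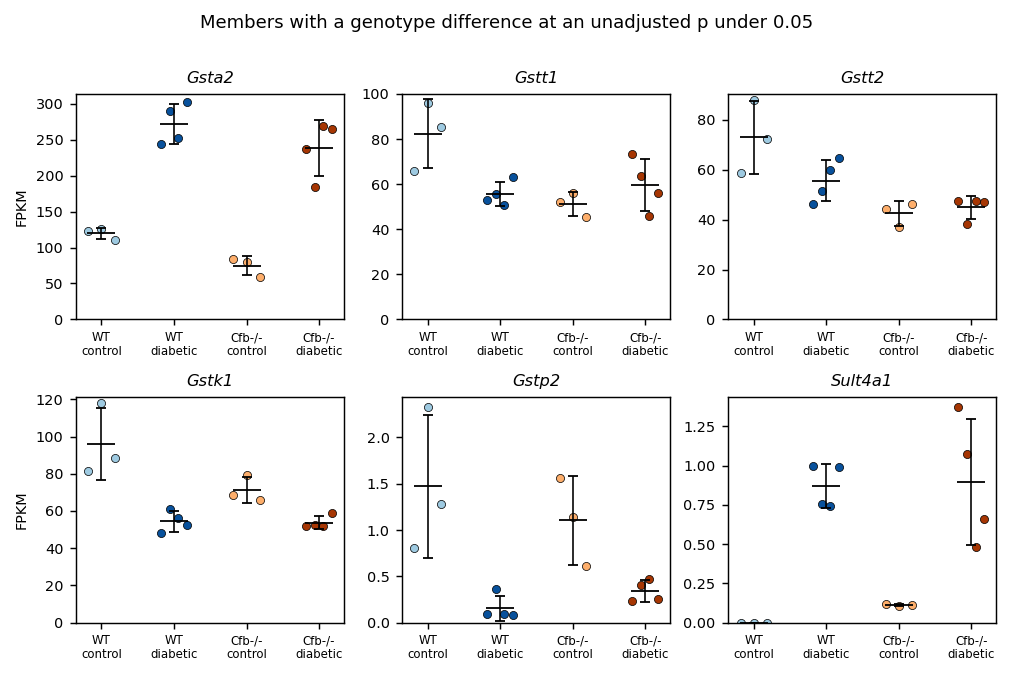
FPKM of 6 genes with an unadjusted p under 0.05 in a genotype comparison or in the test of the difference between the diabetes comparisons, in each mouse (points), with group mean and SD (bar and whiskers) and axes starting at 0. *Gsta2*, *Gstt1*, *Gstt2*, and *Gstk1* are lower in each *Cfb*-/- control mouse than in each WT control mouse, and all 6 genes overlap between genotypes in diabetic mice.

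Whether diabetes differed with genotype was tested by the interaction, the difference in *Cfb*-/- mice minus that in WT mice. None of the 47 genes was called by limma, and 0% of all tested genes were. At an unadjusted p under 0.05 there were 7 (14.9%), beside 5.77% of all tested genes, namely *Gsta2*, *Gstk1*, *Gstm7*, *Gstp2*, *Gstt1*, *Gstt2*, and *Sult4a1*. The criteria of the study were met by *Gstp2*, upward, and *Sult4a1*, downward, beside 1.77% of all tested genes (0.463% higher and 1.31% lower). The smallest p was that of *Gstt1*, which was lower with diabetes in WT mice (-0.55) and at 0.21 in *Cfb*-/- mice, an interaction of 0.76 (SE 0.22, adjusted p 0.759 from limma). That of *Sult4a1* was -1.12 (SE 0.38, adjusted p 0.779), and with a pseudocount of 0.01 it was called. The 9 genes called in WT mice alone and the 3 called in *Cfb*-/- mice alone are therefore not shown to differ between genotypes.

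The pathways that feed and follow conjugation were counted in the diabetes comparisons from gene lists chosen for their function. Of 13 tested genes of glutathione synthesis and turnover, 2 were higher and 6 lower in WT mice (15.4% and 46.2%) and 1 was higher and 5 lower in *Cfb*-/- mice (7.69% and 38.5%). For this and the following lists, the background over all tested genes was 36.2% higher and 9.97% lower in WT mice and 27.4% and 6.4% in *Cfb*-/- mice. *Ggt1*, which starts the breakdown of glutathione conjugates at the brush border, was at 455 ± 69.0 FPKM (SD, n = 3) in WT control and 236 ± 13.8 FPKM (SD, n = 4) with diabetes in WT mice, and fell by a log2 difference of 0.94 in WT and 0.82 in *Cfb*-/- mice. *Ggct* (-1.33 and -1.45), *Nat8f1* (-0.88 and -0.67), *Nat8* (-0.82 and -0.54), and *Chac2* (-0.44 and -0.51) were lower in both, *Dpep1* was lower in WT mice (-0.76), and *Oplah* was higher in both (0.79 and 0.49). *Gclc*, the catalytic subunit of the rate-limiting enzyme of glutathione synthesis, rose by 0.64 in WT mice (adjusted p 0.0192 from limma) and had a log2 difference of -0.24 in *Cfb*-/- mice (adjusted p 0.378). *Gclm*, its modifier subunit, was not called in either.

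Of 9 export pumps of conjugates or of unconjugated drugs (the latter *Abcb1a* and *Abcb1b*), 6 were higher and 2 lower in WT mice (66.7% and 22.2%). In *Cfb*-/- mice 5 were higher and 1 lower (55.6% and 11.1%), against the background just given. *Abcc4* was at 4.46 ± 1.18 FPKM (SD, n = 3) in WT control and 18.9 ± 2.08 FPKM (SD, n = 4) with diabetes in WT mice, with log2 differences of 2.09 and 1.92 in WT and *Cfb*-/- mice. *Abcc3*, a pump of glucuronides, had log2 differences of 2.80 and 2.21, *Abcc1* of 1.27 and 1.01, *Abcb1a* of 1.14 and 0.94, and *Abcb1b* of 0.87 and 1.02, all called. *Abcc5* was higher in WT mice alone at the threshold (0.88), *Abcg2* was lower in both (-0.42 and -0.54), *Abcc6* was lower in WT mice (-0.51), and *Abcc2* was called in neither. The median of the 9 log2 differences was 0.88 in WT and 0.94 in *Cfb*-/- mice, beside 0.29 and 0.22 for all tested genes.

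Of 13 regulators of conjugation genes, 4 were higher in both genotypes, namely *Ahr* (log2 differences 1.25 and 0.88), *Nr1i3* (0.86 and 0.98), *Nfe2l2* (0.54 and 0.54), and *Cebpb* (0.56 and 0.79). They encode the aryl hydrocarbon receptor, the receptor CAR, NRF2, and C/EBP beta. With 4 of 13 higher (30.8%), beside 36.2% and 27.4% of all tested genes in WT and *Cfb*-/- mice and 22.7% in both, these calls were near the background. *Hnf4a*, a factor of hepatocyte and proximal tubule identity, was lower in both (-0.75 and -0.79), and *Rxra* (-0.36) and *Esrra* (-0.39) were lower in WT mice. Levels of these transcripts say nothing of the activity of their proteins, which was not measured.

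Of 15 other conjugating enzymes, 1 was higher and 6 lower in WT mice and 1 was higher and 9 lower in *Cfb*-/- mice. *Nnmt*, which methylates nicotinamide, was higher in both (1.64 and 1.96). *Inmt*, a methyltransferase of indole amines, was at 1138 ± 205 FPKM (SD, n = 3) in WT control and 292 ± 59.5 FPKM (SD, n = 4) with diabetes in WT mice, and fell by 1.97 and 1.39. *Glyat*, which couples acids to glycine, fell by 0.90 and 0.75, and *Acsm2*, which activates such acids, by 1.19 and 1.42. Of 5 deconjugating enzymes, *Arsa*, *Sulf1*, and *Sulf2* were higher and *Arsb* lower in both genotypes. These remove sulfate from lipids and glycans, and *Gusb*, the beta-glucuronidase, was called in neither. Of 7 genes of UDP-glucuronate supply, *Uxs1* was higher in WT mice (0.47), *Slc35d2* lower in both (-0.32 and -0.40), and *Ugdh*, which makes UDP-glucuronate, was not called (0.35 and 0.30). Of 10 genes of sulfate and PAPS supply, *Impad1*, *Slc26a2*, and *Slc26a6* were higher and *Slc26a1* lower in WT mice, and *Bpnt1* was lower in *Cfb*-/- mice. No gene of these 7 lists was called in either genotype comparison or in the interaction by limma. Of the 72 tested, 1 was at an unadjusted p under 0.05 in the deletion among diabetic mice, 13 among control mice, and 3 in the interaction. These shares, 1.39%, 18.1%, and 4.17%, lay near or below those of all tested genes, 3%, 17.5%, and 5.77%.

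The 19 genes left out were all near the floor, with none above 0.127 FPKM in any mouse. Just outside the limit were *Mgst2*, whose third-highest mouse was at 0.0947 FPKM, and *Ugt1a5*, at 0.0856 FPKM. Just inside were *Gstt4*, at 0.125 FPKM, and *Gstm3*, at 0.349 FPKM. Of the SULT2 genes, which include steroid sulfotransferases of the liver, 2 of 9 were kept, and *Sult2a1*, *Sult2a2*, *Sult2a5*, *Sult2a6*, *Sult2a7*, *Sult2a8*, *Sult3a1*, and *Sult3a2* were listed at 0 in all 14 mice.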

How the data were processed

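Kidney mRNA of 14 mice was analysed from the FPKM values that the authors deposited per gene and mouse. The submitters' processing notes name Trimmomatic, HISAT2, Cufflinks, HTSeq, DESeq, and the build GRCm38.p6, without versions or order. The unit was read from the values, and 0 columns of other samples were present. The count-based test of the study needs read counts, so log2(FPKM + 0.1) was fitted with limma 3.58.1 (R 4.3.3) with a mean-variance trend, a mean per group, all 14 mice, and no further scaling, over the 14912 genes at 0.1 FPKM or more in 3 or more mice. P values were adjusted by the Benjamini-Hochberg method over all of them. The fit was also run on simulated data with independent normal noise and changes in WT diabetic mice only. That setting is simpler than these data, so it does not show how well the calls given here hold. Family totals are sums of FPKM with no test. Read numbers are unknown, and relative depth, from the steps between low values, was 0.837 to 1. Pearson correlations within groups were 0.981 to 0.990, and no pair of libraries was identical.

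The enzymes and the gene lists were chosen with earlier results of these data known. The genes named are those with an adjusted p under 0.05 and a log2 difference of at least 1, the most abundant of each family, the smallest p of each comparison, those next to the limits of the rule, and those of counts of 5 or fewer. Others were named after their values were seen. Promoters and gene positions came from RefSeq tables of GRCm38.p6, and transcripts from the GENCODE annotation of GRCm38. Promoters were matched for 42 of the 47 genes. A gene of the regulator list is not reported here. Alternatives were other filters, pseudocounts of 0.01 and 1, median-ratio scaling, quantile normalization, the replicate number as a block, the compared groups alone, and leaving out each mouse in turn. Figures were drawn with matplotlib 3.10.9.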

Additional observations from a re-analysis of the deposited data

Results flagged for a closer look

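In 9 of 94 groups of 4 diabetic mice (9.57%), 1 mouse stood apart from the others by Dixon's criterion. For independent, normally distributed values this is met in about 1 of 20 groups. The groups here are genes measured in the same mice, so whether 9.57% is an excess cannot be decided. *Cfb*-/- diabetic mouse 4 was the highest of its group for *Gstk1* (58.8 FPKM) and *Gstm1* (337 FPKM) and the lowest for *Ugt2b5* (2.77 FPKM). WT diabetic mouse 2 was the highest of its group for *Gstm2* (73.8 FPKM), *Gstp2* (0.359 FPKM), and *Ugt1a1* (5.81 FPKM). *Cfb*-/- diabetic mouse 2 was the lowest for *Gstt2* (38.1 FPKM), *Cfb*-/- diabetic mouse 1 the highest for *Gstt4* (0.266 FPKM, the other three being listed at 0), and WT diabetic mouse 1 the lowest for *Sult1a1* (2.36 FPKM).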

How the results depend on the processing

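Of the genes called with diabetes, 19 of 30 in WT and 17 of 24 in *Cfb*-/- mice kept their call under every alternative that could be run for them, among them *Ugt1a1*, *Ugt1a2*, *Ugt1a6a*, *Ugt1a10*, *Ugt2b38*, *Ugt2a3*, *Gsta1*, *Gsta2*, *Gsta4*, *Gsto1*, *Gstz1*, *Mgst1*, and *Sult4a1* in both. The direction changed for *Sult1a1* in WT mice under quantile normalization (-0.051), for *Sult5a1* under quantile normalization (-0.056 in WT and -0.17 in *Cfb*-/- mice), for *Ugt1a7c* in WT mice under quantile normalization (0.15) and without WT diabetic mouse 4 or WT control mouse 1 (leaving out 1 mouse gave -0.27 to 0.12), and for *Gstt1* in *Cfb*-/- mice under median-ratio scaling (-0.033). Under median-ratio scaling the ratio of diabetic to control totals was 0.884 and 1.04 for all GST genes, 1.20 and 1.20 for MGST genes, and 0.819 and 0.771 for all 47 genes in WT and *Cfb*-/- mice, and 0.666 for all UGT genes in WT mice. With a pseudocount of 0.01, *Sult4a1* made 1 call among control mice and 1 in the interaction. Leaving out 1 mouse gave 0 to 6 calls in the deletion among control mice, and 5 to 14 genes at an unadjusted p under 0.05. Among diabetic mice that number was 0 to 7. With a pseudocount of 1, the criteria of the study were met by 10 genes in each diabetes comparison (18 in WT and 17 in *Cfb*-/- mice with 0.1). Without *Cfb*-/- control mouse 2, 5 genes were called lower with diabetes in *Cfb*-/- mice in place of 9, and without WT control mouse 1, 7 met the criteria of the study in the interaction in place of 2.

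Whether replicate numbers pair the mice is not stated in the labels. Of 19 same-number pairs of deviations from the group means, 3 had a correlation over 0.1 (range -0.388 to 0.243), and a pair of different number reached 0.393. Such correlations in groups this small cannot decide whether mice shared a batch. With the replicate number as a block, 26 genes were called with diabetes in WT and 22 in *Cfb*-/- mice, beside 42.1% and 29.9% of all tested genes. The cause of these changes was not tested. Depth is unknown, so genes near 0.1 FPKM, such as *Sult2a3* or *Gstt4*, limit what can be read.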

Other observations

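The diabetic mice did not share a single order of levels, but for 4 of the 47 genes (8.51%) the same 3 of 8 diabetic mice were the highest, beside 2.57% of all tested genes. The genes were *Ugt1a2*, *Ugt1a1*, *Gsta1*, and *Gstm7*, and they were singled out after their values had been seen. The mice were *Cfb*-/- diabetic mice 1 and 4 and WT diabetic mouse 2. This set was taken from the order of *Ugt1a2*, which therefore matched by definition. *Ugt1a1* shares all but its first exon with *Ugt1a2*, so their orders are not independent, and the 8.51% is a description and no test. In these mice *Ugt1a2* was at 70.2, 74.4, and 99.997 FPKM, and in the other 5 diabetic mice at 12.0 to 43.4 FPKM. *Gsta1* was at 8.71, 8.37, and 8.47 FPKM beside 3.43 to 5.03 FPKM, and *Ugt1a1* at 4.00, 4.10, and 5.81 FPKM beside 1.55 to 2.53 FPKM. The proximal tubule marker sum of these 3 mice was 2978, 4775, and 4852 FPKM, so they include the lowest and the highest of the 8.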
